A study of Homo sapiens with 6 samples.

Results

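The mRNAs of 10 regulators of the BCL2 family were examined in PANC-1 cells after knockdown of CD73. They were chosen by symbol with earlier results of these data known, so counts among them describe the set and test nothing. All 10 were found by Ensembl identifier among the 30735 genes of the tables. BCL2, BCL2L1 and MCL1 are anti-apoptotic, BAX and BAK1 are effectors, and BID, BBC3, PMAIP1, BIK and BCL2L11 are BH3-only proteins. PANC-1 is an established line from a human pancreatic ductal adenocarcinoma. In the series, 3 samples were transfected with CD73 siRNA and 3 with negative control, all with a Lipofectamine reagent. The siRNA is known by a catalogue number without a sequence. The study speaks of separate knockdown experiments, but the sources used here do not describe the cultures behind each sample, so p-values measure the spread between these samples, which may be partly technical. The study asked about growth and apoptosis of these cells, and the comparison here asks how the mRNAs of the mitochondrial apoptosis switch differed between the groups.

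The BCL2 family decides whether the outer membrane of the mitochondrion is opened. BAX and BAK1 form the pores through which cytochrome c leaves. BCL2, BCL-XL (the product of BCL2L1) and MCL-1 bind and hold back both the effectors and the BH3-only proteins. The BH3-only proteins BIM (BCL2L11), PUMA (BBC3), NOXA (PMAIP1), BID and BIK report stress or damage to this switch. NOXA binds mainly MCL-1, and BID is activated by caspase-8 downstream of death receptors. MCL-1 and NOXA are short-lived proteins, and epithelial tumours often depend on BCL-XL and MCL-1. Much of the family's control is by protein cleavage, phosphorylation and binding, which mRNA levels do not show.

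All 10 proteins carry a BH3 segment, by which the members bind each other. Its core is a leucine, 3 further residues, a glycine or alanine, and an aspartate. Searched in the translated principal transcripts of GENCODE release 29 (GRCh38), this core occurred once in each of the 10 members. It is short, and 24.8% of 19550 coding genes held it, so a match alone marks no family member. The sequences below are shown because this segment is what the 3 role groups share. Each run is 27 bases of coding sequence in the sense direction. Capitals mark the leucine codon and the codons of the glycine or alanine and the aspartate.
BCL2: accCTCcgccaggccGGCGACgacttc
BCL2L1: gcgCTGagggaggcaGGCGACgagttt
MCL1: accTTAcgacgggttGGGGATggcgtg
BAX: tgtCTCaagcgcatcGGGGACgaactg
BAK1: cagCTCgccatcatcGGGGACgacatc
BID: cacCTCgcccaggtcGGGGACagcatg
BBC3: cagCTGcggcggatgGCGGACgacctc
PMAIP1: caaCTCaggagatttGGAGACaaactg
BIK: cggCTGgcctgcatcGGGGACgagatg
BCL2L11: gagTTGcggcgtattGGAGACgagttt
The residue before the aspartate was glycine in 9 members and alanine in BBC3 only. In BCL2L1 the run lies in exon 2 of 3 on chromosome 20 (31721928 to 31721954, reverse strand). In MCL1 it lies in exon 1 of 3 on chromosome 1 (150578871 to 150578897, reverse strand). Reads were counted per gene, so isoforms with and without this segment cannot be told apart. GENCODE lists 9 coding transcripts for BCL2L1, 3 for MCL1, 11 for BID and 17 for BCL2L11.

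The deposited values were read as RPKM, reads scaled to each gene's exon length and each library's total. Library totals recovered from the values lay between 15009113 and 16836207. NT5E, the gene of CD73, lay at 3.36 to 8.22 RPKM after CD73 siRNA and at 13.87 to 17.14 RPKM with negative control. All knockdown samples lay below all controls, with a difference in log2(RPKM + 1) of -1.23 (SE 0.26, unadjusted p 0.00144 and adjusted p = 0.303 from limma). Of the epithelial and line markers, KRT8, KRT18 and VIM were high, KRT19 was at 3.60 to 5.39 RPKM, EPCAM and CDH1 were near 1 RPKM and KRT7 was at most 0.107 RPKM. KRT8 and KRT18 were past the unadjusted p of 0.01 used below, with mean levels of 40.99 and 43.35 RPKM after CD73 siRNA against 104.5 and 70.41 RPKM in controls. Their part in the differences below was not tested. All 8 leukocyte, endothelial, islet and liver markers with a value were under 1 RPKM in every sample, and their summed level was 0.0922 to 0.160 RPKM after CD73 siRNA and 0.167 to 0.350 RPKM in controls. The collagen genes COL1A1 and COL3A1 summed to 17.41 to 30.83 RPKM and 18.72 to 31.32 RPKM. In such bulk samples, fewer cells of a kind and less RNA per cell cannot be told apart.

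Levels per exon length spanned a wide range within the family. MCL1 was the most abundant member, at 43.89 to 68.24 RPKM over the 6 samples, and all 6 placed it above every other member. BAK1 (17.32 to 26.58 RPKM), BCL2L1 (9.86 to 22.12 RPKM), BAX (15.33 to 18.46 RPKM) and PMAIP1 (10.05 to 18.16 RPKM) followed with overlapping ranges. The order of the first 3 differed by group. BAK1 was above BCL2L1 in all 3 negative controls and below it in all 3 CD73 siRNA samples. BCL2L1 was above BAX in all 3 CD73 siRNA samples and in 1 negative control. These orders were read after the values had been seen and have no test. BID (8.04 to 12.13 RPKM) overlapped PMAIP1, and below it each range was clear of the next. BCL2L11 had 4.87 to 8.02 RPKM, BBC3 1.21 to 2.49 RPKM and BIK 0.457 to 1.05 RPKM. BCL2 itself, the founding member, was the lowest at 0.131 to 0.175 RPKM. The reads behind these values ranged from 3230 to 4713 per sample for MCL1 down to 26 to 33 for BCL2 and 7 to 16 for BIK.

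**Figure D1:**
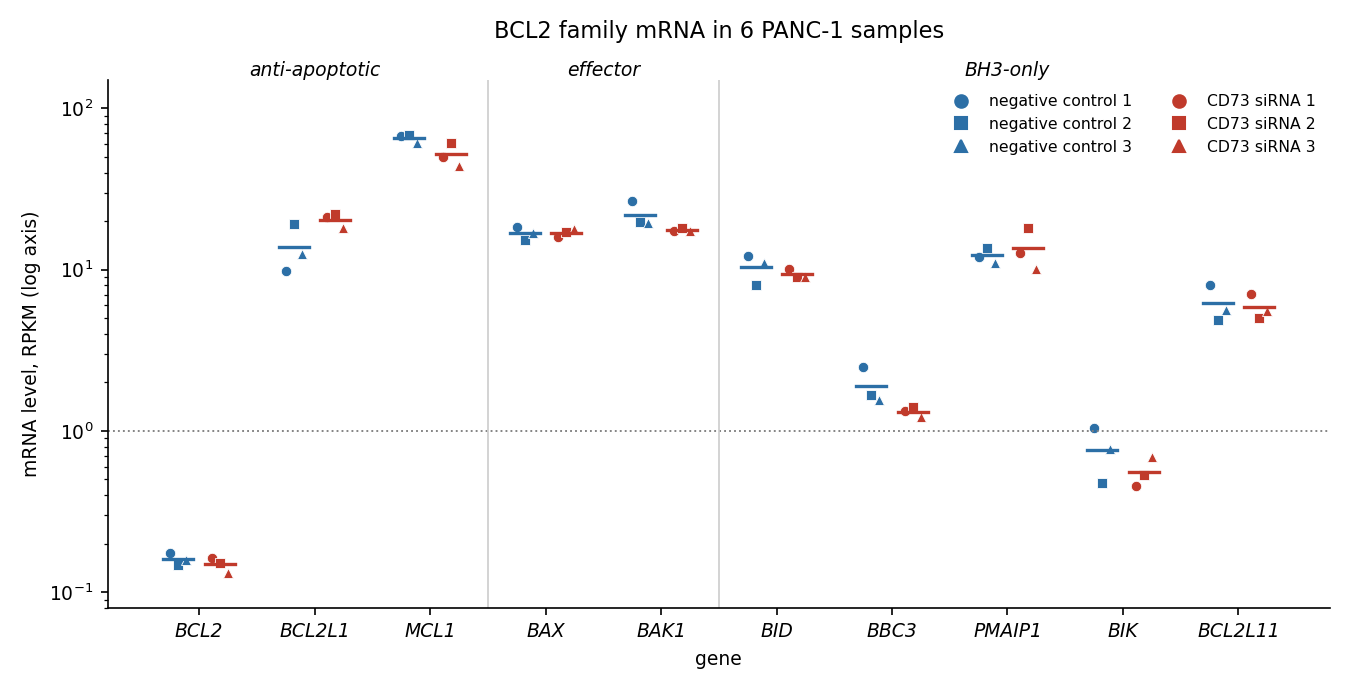
Level of each of the 10 genes in RPKM (log axis) in every sample. Colours give the group, marker shapes the replicate number and short lines the group means; the dotted line is 1 RPKM. MCL1 lies highest at 43.89 to 68.24 RPKM and BCL2 lowest at 0.131 to 0.175 RPKM, and the groups are separated only for MCL1, BAK1 and BBC3.

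Group differences, always CD73 siRNA minus negative control in log2(RPKM + 1), were tested by limma over the 12527 genes that reached 1 RPKM in 3 or more samples. BCL2 and BIK did not pass this filter, so 8 of the 10 members were tested. None of the 8 was past an unadjusted p below 0.01, the threshold the study used for its transcriptome, and none had an adjusted p below 0.05. At an unadjusted p below 0.05 there were 2, BCL2L1 (higher after CD73 siRNA) and MCL1 (lower), against 1519 of the 12527 tested genes. Among all tested genes, 3.13% were past the threshold of 0.01 (1.82% with higher and 1.31% with lower levels). An adjusted p below 0.05 was found for 0.00798% of them. With the replicate number as a block, BCL2L1 and MCL1 were past p below 0.01, against 7.57% of all tested genes. This pairing by number was read from the same values and is not a stated batch. The groups did not overlap in 3 of the 8 members, MCL1, BAK1 and BBC3, all with lower levels after CD73 siRNA, against 8.07% of all tested genes. No member was separated in the other direction, against 10.3% of all tested genes. The count of genes past the threshold of 0.01 over the whole table, 392, depended on single libraries. It was 116, 316 and 275 without CD73 siRNA replicates 1, 2 and 3. Without negative control replicates 1, 2 and 3 it was 188, 792 and 258.

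BCL2L1 encodes BCL-XL and lies on chromosome 20 (31664452 to 31723989, reverse strand). After CD73 siRNA it had 21.19, 22.12 and 18.03 RPKM in samples 1, 2 and 3, and with negative control 9.86, 19.18 and 12.57 RPKM. Negative control 2 lay among the knockdown samples, so the groups overlapped, while the other two controls were below all of them. The means were 20.45 ± 2.15 and 13.87 ± 4.80 RPKM (SD, n = 3 each), a ratio of 1.48. This gave a log2 difference of 0.57 (SE 0.21, 95% interval 0.08 to 1.06, adjusted p = 0.368 from limma). The exact permutation test gave p = 0.2. Within replicate numbers 1, 2 and 3 the log2 differences were 1.03, 0.20 and 0.49, higher after CD73 siRNA in each. With the replicate block the interval was 0.20 to 0.94 and the unadjusted p 0.00868 (adjusted p = 0.127). Without negative control replicate 2 the difference was 0.82, with an unadjusted p of 0.000712 and an adjusted p of 0.0879. Without negative control replicate 1 it was 0.37 (unadjusted p 0.0918). Without any 1 of the other samples the unadjusted p was 0.0305 to 0.0732, and without moderation on all samples it was 0.106. BCL2L1 had the largest difference of the 8, larger in size than that of 96.5% of tested genes. The antisense gene ABALON covers 43.0% of its exonic bases and had 10 to 45 reads per sample, against 524 to 1154 for BCL2L1. Whether the libraries kept strand is not given in the sources used here, and reads of overlapping genes cannot then be told apart.

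MCL1 lies on chromosome 1 (150574551 to 150579738, reverse strand) and encodes the short-lived MCL-1. After CD73 siRNA it had 50.14, 61.19 and 43.89 RPKM in samples 1, 2 and 3, and with negative control 67.23, 68.24 and 61.29 RPKM. All knockdown samples were below all controls, although the gap was narrow, between 61.19 RPKM in CD73 siRNA 2 and 61.29 RPKM in negative control 3. The means were 51.74 ± 8.76 and 65.59 ± 3.75 RPKM (SD, n = 3 each). The first was 78.9% of the second. On the log2 scale they differed by -0.35 (SE 0.13, 95% interval -0.65 to -0.04, adjusted p = 0.373 from limma). The exact permutation test gave p = 0.1, the smallest value that 3 against 3 allows. Within replicate numbers 1, 2 and 3 the log2 differences were -0.42, -0.15 and -0.47. With the replicate block the interval was -0.56 to -0.14 and the unadjusted p 0.00623 (adjusted p = 0.119). Without CD73 siRNA replicate 2 the difference was -0.47, with an unadjusted p of 0.00536 (adjusted p = 0.36). Without CD73 siRNA replicate 3 it was -0.24 (unadjusted p 0.106), and without any 1 of the other samples the unadjusted p was 0.0367 to 0.0759.

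BCL2, on chromosome 18 (63123346 to 63320128, reverse strand), had 0.164, 0.151 and 0.131 RPKM after CD73 siRNA and 0.175, 0.148 and 0.159 RPKM in controls. The 26 to 33 reads behind each value carry a counting error of 17.4% to 19.6%, larger than the distance between the means of 0.149 ± 0.016 and 0.160 ± 0.014 RPKM (SD, n = 3 each). No difference was detectable at this depth.

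The makeup of the summed mRNA of BCL2, BCL2L1 and MCL1 was computed after these values had been seen and has no test. The sum leaves out other anti-apoptotic genes, among them BCL2L2 (6.65 to 10.90 RPKM) and BCL2A1 (4.98 to 13.60 RPKM). The shares are therefore shares of these 3 genes only. MCL1 made up 70.1%, 73.3% and 70.7% of the summed RPKM of the 3 genes in CD73 siRNA replicates 1, 2 and 3. In the negative controls it made up 87.0%, 77.9% and 82.8%, so the groups did not overlap. The MCL1 to BCL2L1 ratio was 2.37, 2.77 and 2.43 after CD73 siRNA and 6.82, 3.56 and 4.88 in controls. The controls were spread more widely than the knockdown samples. The summed level of the 3 genes overlapped between the groups, at 62.05 to 83.47 RPKM after CD73 siRNA and 74.02 to 87.57 RPKM in controls.

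**Figure D2:**
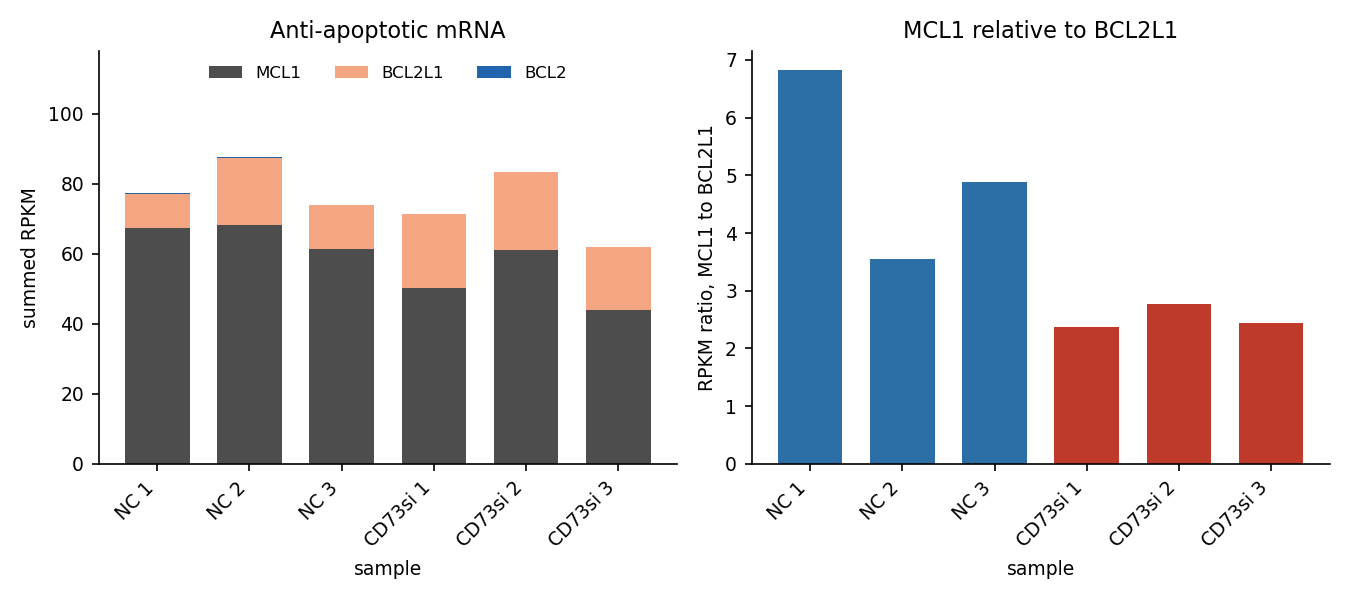
Left, RPKM of MCL1, BCL2L1 and BCL2 stacked for each sample, with negative controls (NC) and CD73 siRNA samples (CD73si) named by replicate number; right, the MCL1 to BCL2L1 ratio per sample. The ratio lies between 2.37 and 2.77 in the knockdown samples and between 3.56 and 6.82 in the controls, and BCL2 is too low to be seen in most bars.

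Of the effectors, BAX had nearly equal means in both groups. BAX lies on chromosome 19 (48954815 to 48961798, forward strand) and encodes a protein that moves from the cytosol to the mitochondrion on activation. It had 15.99, 17.12 and 17.82 RPKM after CD73 siRNA and 18.46, 15.33 and 16.95 RPKM in controls. The highest and the lowest value were both controls. Its log2 difference was 0.01 (SE 0.11, 95% interval -0.24 to 0.25, adjusted p = 0.985 from limma). Among the 8 tested members BAX had the narrowest interval, and its estimate ranged from -0.057 to 0.069 when single samples were left out.

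BAK1, on chromosome 6 (33572547 to 33580293, reverse strand), encodes the effector that sits in the mitochondrial membrane. It had 17.32, 18.21 and 17.45 RPKM after CD73 siRNA and 26.58, 19.68 and 19.37 RPKM in controls. The knockdown samples were close together and all below the controls, of which negative control 1 stood highest. The means were 17.66 ± 0.48 and 21.88 ± 4.08 RPKM (SD, n = 3 each). The log2 difference was -0.28 (SE 0.13, 95% interval -0.59 to 0.03, adjusted p = 0.446 from limma), and the exact permutation test gave p = 0.1. Without negative control replicate 1 it was -0.14. Within replicate numbers 1, 2 and 3 it was -0.59, -0.11 and -0.14. The processed pseudogene BAK1P1 had 6 to 16 reads per sample, also with the most in negative control 1, and the 616 to 943 reads of BAK1 could include reads from such copies.

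BBC3, on chromosome 19 (47220822 to 47232766, reverse strand), encodes PUMA, which binds all anti-apoptotic members. It had 1.33, 1.40 and 1.21 RPKM after CD73 siRNA and 2.49, 1.68 and 1.55 RPKM in controls, without overlap. The means were 1.31 ± 0.09 and 1.91 ± 0.51 RPKM (SD, n = 3 each), the first being 68.9% of the second. They differed by -0.32 on the log2 scale (SE 0.15, 95% interval -0.67 to 0.04, adjusted p = 0.454 from limma), and the exact permutation test gave p = 0.1. Without negative control replicate 1, which had 127 reads against 74 and 83 in the other controls, the difference was -0.18. The pseudocount of 1 shrinks a difference at this level, and with a pseudocount of 0.1 it was -0.48.

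PMAIP1, on chromosome 18 (59899948 to 59904306, forward strand), encodes NOXA. By RPKM it was the highest BH3-only member in 4 of 6 samples, and BID was just above it in negative controls 1 and 3. This order rests on annotated exon length, 2235 bases for PMAIP1 and 4446 for BID. In reads, PMAIP1 had 370 to 639 per sample and BID 555 to 865. PMAIP1 had 12.61, 18.16 and 10.05 RPKM after CD73 siRNA and 12.05, 13.66 and 11.03 RPKM in controls. The samples numbered 2 were the highest of both groups. The log2 difference was 0.11 (SE 0.20, 95% interval -0.34 to 0.56, adjusted p = 0.859 from limma). Within replicate numbers 1, 2 and 3 it was 0.06, 0.39 and -0.12, so the direction was mixed, and without CD73 siRNA replicate 2 the group difference was -0.11. Relative to its main partner, the PMAIP1 to MCL1 ratio was 0.252, 0.297 and 0.229 after CD73 siRNA and 0.179, 0.200 and 0.180 in controls. This ratio did not overlap between the groups and, like the other ratios, was computed after the values had been seen and has no test. MCL1 alone did not overlap either, while PMAIP1 alone did. The BAX to BAK1 ratio was also without overlap, at 0.923 to 1.02 after CD73 siRNA and 0.695 to 0.875 in controls. The BAX to BCL2L1 ratio overlapped. How often ratios of other gene pairs are without overlap was not computed.

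BID, on chromosome 22 (17734138 to 17774770, reverse strand), links death receptors to the mitochondrion. It had 10.14, 9.05 and 8.98 RPKM after CD73 siRNA and 12.13, 8.04 and 11.06 RPKM in controls. Negative control 2 was the lowest of all 6 samples and the other controls the highest. The log2 difference was -0.12 (SE 0.15, 95% interval -0.47 to 0.23, adjusted p = 0.778 from limma). It was -0.0090 without negative control replicate 1 and -0.28 without negative control replicate 2. BCL2L11, on chromosome 2 (111119378 to 111168447, forward strand), encodes BIM, which is held down by ERK signalling. It had 7.03, 5.02 and 5.50 RPKM after CD73 siRNA and 8.02, 4.87 and 5.64 RPKM in controls. The samples with the same number lay near each other, and within numbers 1, 2 and 3 the log2 differences were -0.17, 0.04 and -0.03. The group difference was -0.05 (SE 0.18, 95% interval -0.48 to 0.37, adjusted p = 0.931 from limma). When single samples were left out, it ranged from -0.19 to 0.12. The antisense long noncoding RNA gene MIR4435-2HG shares 10.9% of the exonic bases of BCL2L11 and was itself at 3.70 to 5.26 RPKM.

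BIK, on chromosome 22 (43110748 to 43129712, forward strand), encodes a BH3-only protein of the endoplasmic reticulum. It had 0.457, 0.533 and 0.686 RPKM after CD73 siRNA and 1.05, 0.473 and 0.769 RPKM in controls. The 7 reads of CD73 siRNA 1 have an exact Poisson interval of 2.81 to 14.4 reads, and the 16 reads of negative control 1 an interval of 9.14 to 26.0 reads. These intervals cover counting error only, and they overlap even between the lowest and the highest sample. No difference was detectable at this depth.

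**Figure D3:**
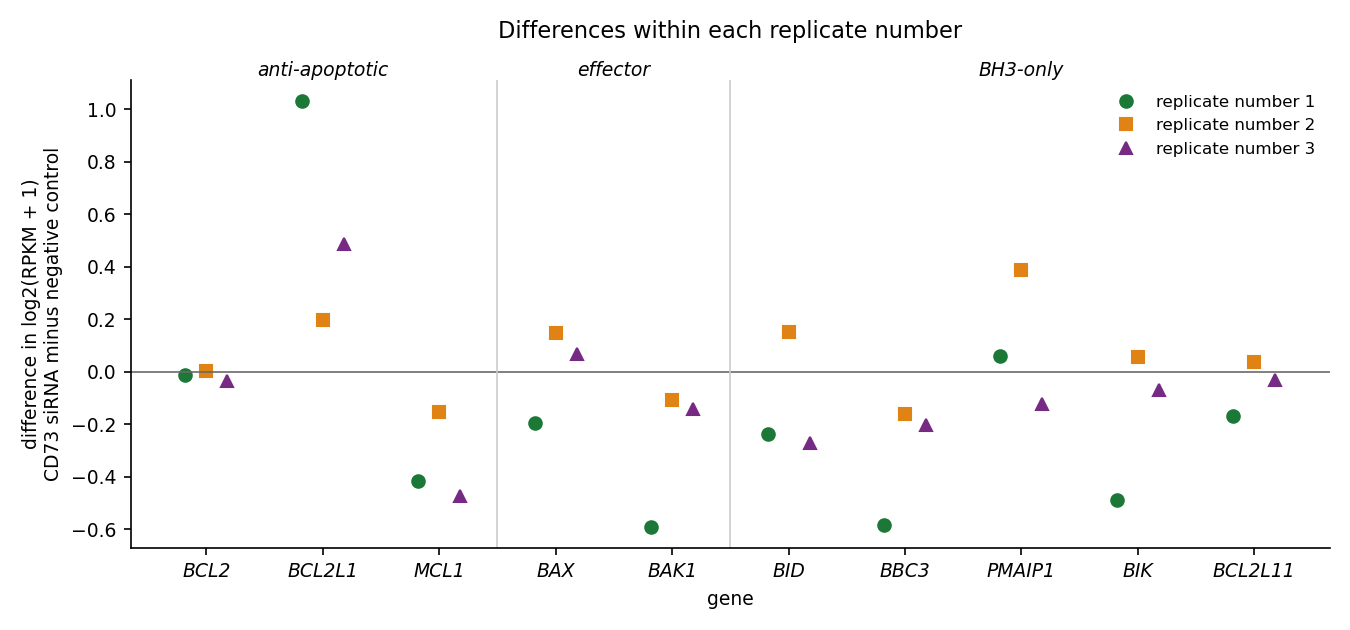
Difference in log2(RPKM + 1), CD73 siRNA minus negative control, within each replicate number for the 10 genes. BCL2L1 lies above 0 for all 3 numbers, at 0.20 to 1.03, and MCL1, BAK1 and BBC3 lie below 0 for all 3, while the other 6 genes are mixed in direction.

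By role, the median log2 difference of the tested members was 0.11 for the anti-apoptotic genes, -0.14 for the effectors and -0.09 for the BH3-only genes, each a median of 2 to 4 genes, against 0.01 over all tested genes. Each role held members on both sides of 0. Above 0 were only BAX, at 0.01, among the effectors and only PMAIP1, at 0.11, among the tested BH3-only genes. Both estimates changed direction in fits that left out a sample. The summed effector level was 33.31, 35.33 and 35.27 RPKM after CD73 siRNA and 45.04, 35.01 and 36.31 RPKM in controls. The summed BH3-only level was 31.56, 34.16 and 26.43 RPKM against 35.74, 28.71 and 30.05 RPKM. Both sums overlapped, and so did the ratio of summed effector to summed anti-apoptotic RPKM, at 0.423 to 0.568 and 0.400 to 0.583. These sums hold only the 10 members and leave out BOK, BCL2L2, BCL2A1 and other family genes. The mean log2(RPKM + 1) of effector and BH3-only genes minus that of anti-apoptotic genes was -0.56, -0.64 and -0.47 after CD73 siRNA and -0.04, -0.69 and -0.37 in controls. Negative control 1 was the highest of the 6. The same sample held the highest value of 7 of the 10 members and the lowest value of BCL2L1. Its part in the group differences shows in the values without it given above for BCL2L1, BAK1, BBC3 and BID.

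**Figure D4:**
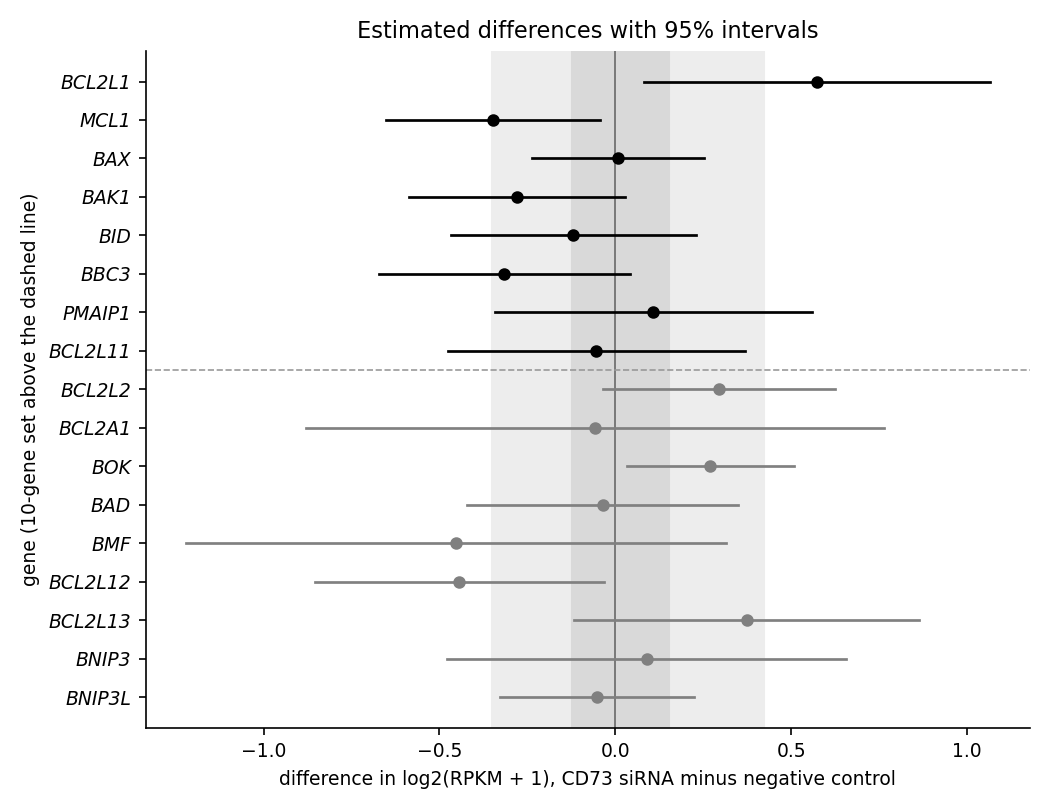
Difference in log2(RPKM + 1), CD73 siRNA minus negative control, as a point with its 95% interval from limma, for the 8 tested genes of the set (black) and 9 further family genes (grey). Dark and light bands hold the middle 50% and 90% of all tested genes. The intervals of BCL2L1 (0.08 to 1.06) and MCL1 (-0.65 to -0.04) lie to opposite sides of 0.

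Of 13 further family genes, 9 were tested and none was past the unadjusted threshold. BCL2L2, which encodes the anti-apoptotic BCL-w, had 9.79, 10.22 and 10.90 RPKM after CD73 siRNA and 6.65, 10.01 and 8.29 RPKM in controls. Like BCL2L1 it was higher after CD73 siRNA within all 3 numbers, with overlapping groups and a log2 difference of 0.29 (SE 0.14, adjusted p = 0.451 from limma), which was 0.16 without negative control replicate 1. BOK, an effector-like member, had 18.82, 18.22 and 16.50 RPKM against 15.06, 15.32 and 13.49 RPKM, without overlap. Its log2 difference was 0.27 (SE 0.10, adjusted p = 0.376). BCL2L12 had 22.23, 21.56 and 22.81 RPKM against 40.85, 23.77 and 29.28 RPKM, and a log2 difference of -0.44 (SE 0.18, adjusted p = 0.385). Without negative control replicate 1 this was -0.24, and without negative control replicate 2 it was -0.62 and past the threshold (unadjusted p 0.00424). BMF, a BH3-only gene, had a log2 difference of -0.45 (SE 0.33) on mean levels of 1.26 and 2.21 RPKM. It ranged from -0.80 without negative control replicate 2 to -0.16 without negative control replicate 1, and was -0.23 without CD73 siRNA replicate 2. BCL2A1 ranged from 4.98 to 13.60 RPKM with the samples numbered 2 the highest of both groups. With the replicate block 1 of the 9 was past the threshold, BCL2L13, at a log2 difference of 0.37 (unadjusted p 0.00738). Unblocked, it was 0.60 and past the threshold when negative control 2 was left out, and 0.20 to 0.24 when negative control 1 or CD73 siRNA 2 was. BNIP3 (20.23 to 38.06 RPKM), BNIP3L (18.31 to 23.56 RPKM) and BAD (1.24 to 2.19 RPKM) had log2 differences of 0.09, -0.05 and -0.04. BCL2L10, HRK, BCL2L14 and BCL2L15 did not reach 1 RPKM in any sample.

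The list of the mitochondrial arm held VDAC channels, released proteins, the apoptosome and caspases, and inhibitors of apoptosis. Of its 14 genes tested here, 1 was past the unadjusted threshold, higher after CD73 siRNA, against 3.13% of all tested genes. BIRC5, which encodes survivin, had 76.86, 66.32 and 67.40 RPKM against 41.02, 59.67 and 50.44 RPKM. Its log2 difference was 0.48 (SE 0.14, adjusted p = 0.32 from limma), and its unadjusted p of 0.009997 lay at the threshold. It was 0.0111 with the replicate block, and at or above 0.0163 without any 1 sample other than negative control replicate 2. BIRC3, an inhibitor of apoptosis, had a log2 difference of -0.44 in the blocked and the unblocked fit. Unblocked, it was not past the threshold (SE 0.45, unadjusted p 0.354 from limma). Blocked, it was past it (SE 0.11, unadjusted p 0.00525 from limma). Without the block it was -0.052 when CD73 siRNA replicate 3 was left out, -0.12 without negative control replicate 2, -0.78 without negative control replicate 3 and -0.91 without CD73 siRNA replicate 2. The median of these 14 genes was -0.02. None of 4 tested genes of MCL-1 turnover was past the threshold, and their log2 differences lay between -0.01 and 0.08, with FBXW7 the highest and USP9X next at 0.05.

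A list written here held genes placed upstream of BH3-only genes, and their action on these was not tested. Of its 6 tested genes, 2 were past the threshold, both higher after CD73 siRNA, against 3.13% of all tested genes. They were E2F1, from 30.34 ± 4.26 to 41.94 ± 1.98 RPKM, and TRIB3, from 6.88 ± 0.95 to 10.66 ± 1.91 RPKM (SD, n = 3 each), with adjusted p of 0.303 for both from limma. Neither stayed past the threshold without CD73 siRNA replicate 1 or 3 or negative control replicate 1, nor did E2F1 without negative control replicate 3 or TRIB3 without negative control replicate 2. DDIT3, which encodes CHOP, was higher within all 3 numbers, at a log2 difference of 0.49 in the blocked and the unblocked fit. Unblocked, it was not past the threshold (SE 0.43, unadjusted p 0.28 from limma). With the replicate block it was past it (SE 0.085, unadjusted p 0.000828 from limma). Without the block it was 0.078 when CD73 siRNA replicate 2 was left out, 0.18 without negative control replicate 3, 0.89 without negative control replicate 2 and 0.76 without CD73 siRNA replicate 3.

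None of the 8 NF-κB survival targets was past the threshold, and their median log2 difference was -0.25. TNFAIP3 was at -0.66 (SE 0.27) and GADD45B at -0.51 (SE 0.15). BIRC3 and GADD45B were past it with the replicate block. GADD45B, at an unadjusted p of 0.0104, was also past it with median centring (0.00844), without negative control replicate 3 (0.00492) and without CD73 siRNA replicate 2 (0.00711). TNFAIP3 was past it without CD73 siRNA replicate 2 (0.00248), and its difference was -0.43 without CD73 siRNA replicate 3. The 8 proliferation markers had log2 differences between -0.13 (PLK1) and 0.08, with TOP2A at -0.09, and none was past the threshold in either fit.

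**Figure D5:**
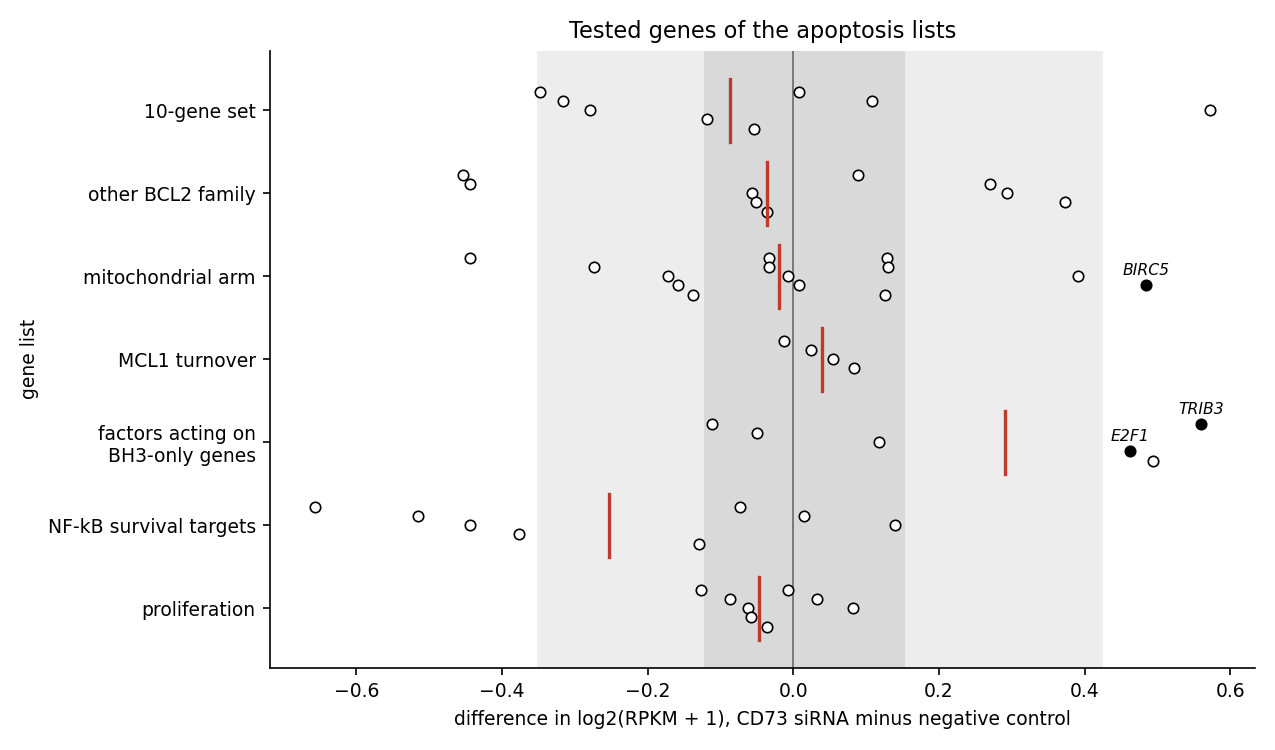
Difference in log2(RPKM + 1), CD73 siRNA minus negative control, of each tested gene in 7 lists. Filled points with names are past an unadjusted p below 0.01, red lines are list medians, and dark and light bands hold the middle 50% and 90% of all tested genes. No gene of the 10-gene set is filled, and BIRC5, E2F1 and TRIB3 are, at 0.48, 0.46 and 0.56.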

How the data were processed

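RNA-seq of 6 PANC-1 samples was analysed, 3 with CD73 siRNA and 3 with negative control. The submitters' processing notes name bcl2fastq, Bowtie2 2.2.3, HTSeq 0.6.0 and the build hg38, without their roles. The authors deposited 1 table per sample with RPKM values, a unit read from the values. Multiplied by merged exon length in GENCODE release 29 (GRCh38), 95.5% to 95.6% of the values below 1000 reads came within 0.05 of a whole multiple of the step that 1 read is worth. Read numbers and library totals given in the text come from these steps and were not tested. Of 30735 identifiers, 132 were absent from GENCODE release 29. Symbols came from the supplied name table.

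Differences were tested on log2(RPKM + 1) with limma 3.58.1 (lmFit, eBayes with trend) in R 4.3.3 over the 12527 genes that reached 1 RPKM in 3 or more samples, with Benjamini-Hochberg adjustment over these genes. The code was tested on simulated data. Exact permutation tests were two-sided. Adjusted p-values are limma's unless another test is named. Each group is numbered 1 to 3 in the labels. Deviations from the group means correlated at 0.197, 0.481 and 0.553 for numbers 1, 2 and 3. Between samples of unlike number they correlated at -0.439 to -0.00637. The numbers were therefore taken to pair the samples, from the data and not from a stated batch, and the blocked p-values rest on this. The members and lists were chosen with earlier results of these data known, and no list was tested. Some listed genes are not reported here and were left out of the list counts. Named genes are the 10 members, NT5E, list genes past an unadjusted p below 0.01, the 2 list genes with the largest differences in each list, the other family genes, cell markers as a check of the samples, and genes past the threshold with the replicate block, which were added after their values had been seen. Coding sequences came from GENCODE transcripts, taking for each gene the best APPRIS rank and then the longest coding sequence.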

Additional observations from a re-analysis of the deposited data

How the results depend on the processing

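No member had an adjusted p below 0.05 under any of the alternatives run, the smallest being 0.0879 for BCL2L1 without negative control replicate 2. The number of members past an unadjusted p below 0.01 was 0 in the reported fit and 2 with the replicate block (BCL2L1 and MCL1). Over the fits that left out 1 sample each it ranged from 0 to 1. BCL2L1, MCL1, BAK1 and BBC3 kept their direction under the alternatives run, and so did BID, at -0.28 to -0.0090 over the samples left out. Over the samples left out in turn, the log2 difference of BAX ranged from -0.057 to 0.069, that of PMAIP1 from -0.11 to 0.29 and that of BCL2L11 from -0.19 to 0.12. With median centring BAX was at -0.0093. For NT5E the difference of -1.23 had an unadjusted p of 0.00144 from limma in the reported fit and 0.000256 with the replicate block. Without moderation the unadjusted p was 0.023. The difference ranged from -1.44 to -0.90 over the samples left out. The count of genes past the threshold, 392, was 948 with the replicate block, 216 without moderation, 1 at an adjusted p below 0.05 and 116 to 792 over the samples left out. Named list genes were refitted in the same ways, an addition chosen after seeing the data. Of 220 such values over 20 genes, 180 kept their direction and their side of the threshold, 19 lost it, 10 newly passed it and 11 changed direction. Those with a change of direction ranged, over the samples left out, from -0.40 to 0.24 (BCL2A1), -0.16 to 0.098 (BAD), -0.17 to 0.28 (BNIP3), -0.12 to 0.052 (BNIP3L), -0.0022 to 0.17 (FBXW7) and -0.00077 to 0.11 (USP9X). The cause of these shifts was not tested. The low read numbers of BCL2 and BIK limit what can be said of them, as does the absence of isoform values for all members.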
